A study of Mus musculus with 2 samples.

Results

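Melanocyte and pigment genes were compared between dorsal skin of Mpzl3 null mouse pups and skin of their wild-type littermates. The set was fixed by name and held 10 genes of melanin synthesis, the melanosome and the melanocyte lineage, namely Tyr, Tyrp1, Dct, Oca2, Slc24a5, Slc45a2, Mlana, Pmel, Mitf and Kit. It was chosen with earlier results of these data known, so its counts beside those of all genes are a description only. Of the 10 genes, 9 were named by at least 1 probe, out of 18855 genes in all, and 11 probes named them. No probe with the name Mlana was found, so Mlana is not analysed here. RNA of both genotypes was hybridised together on 2 Agilent Whole Mouse Genome arrays, 1 with skin taken at 1 day of age (P1) and 1 with skin taken at 9 days (P9). Cy5 marked the null RNA and Cy3 the wild-type RNA each time, so genotype and dye cannot be told apart. The sources used here give neither the strain, nor the design of the null allele, nor whether RNA of several pups was pooled.

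Melanocytes of mouse dorsal skin lie mostly in the hair follicles, where they make melanin inside melanosomes and pass it to the cells of the growing hair. Tyrosinase carries out the first and rate-limiting step, the related enzymes Tyrp1 and Dct act on later intermediates, and transporters of the melanosome membrane set its ion content and acidity. The transcription factor Mitf binds E-box sequences before many of these genes, and signalling through the receptor Kit is needed for melanocytes to migrate and survive.

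Values are given as log2 of the null signal over the wild-type signal, so a negative value means a lower signal in the null channel. Neither age had a replicate array, so no test could be made, and precision is limited by the number of arrays. The spread available is that between different probes of 1 gene on 1 array, an SD of 0.36 log2 at each age, which says nothing of variation between animals. A gene was called higher or lower where the mean over its probes reached 2-fold in size and all its probes lay on the same side of 0. Mpzl3 itself, with 1 probe, was at −0.21 at P1 and 0.195 at P9, and since the place of this probe relative to the deletion is not known here, it does not check the labels. The arrays give no level for either channel alone, so the presence of melanocyte transcripts could not be checked against background, and fewer melanocytes in the skin and less RNA per melanocyte cannot be told apart.

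The promoter sequences are shown as a description of the E-box letters before the start sites of pigment genes. The part of these letters in the ratios of the pigment genes was not tested. RefSeq promoter windows of build GRCm38.p6, from 250 bases before to 50 bases after a transcript's start, were found for 7 of the 10 genes, in 10 windows. No window was found for Slc45a2, Pmel or Mlana. The letters could therefore not be examined in Slc45a2, whose ratio was above 0 on both arrays. Each line gives 29 bases in the direction of the gene, 5′ to 3′, and capitals mark TCATGTG or CATGTG on either strand, the reverse complements being CACATGA and CACATG.
Tyr: gaaaaagttagTCATGTGctttgcagaag
Tyrp1: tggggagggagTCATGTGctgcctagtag
Slc24a5: ggaggaaggagactgctCACATGAttcag
Dct, nearer site: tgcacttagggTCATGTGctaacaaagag
Dct, farther site: cttggctgggaCACATGAgcccaataaag
Oca2: tgagcttgctaCACATGgctggaattttc
They lie at chr7:87493517-87493545 (minus strand) for Tyr, chr4:80834155-80834183 (plus) for Tyrp1, chr2:125068097-125068125 (plus) for Slc24a5, chr14:118052380-118052408 and chr14:118052461-118052489 (minus) for Dct and chr7:56239562-56239590 (plus) for Oca2.

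The motif TCATGTG had its first base, read along the gene, 22 bases before the start site in Tyr, 47 bases before it in Tyrp1 and 13 bases before it in Slc24a5, in which it lies on the opposite strand. Dct held it at 151 bases before the start and, on the opposite strand, at 232 bases. In all, 4 of the 7 genes with a window held TCATGTG, against 4.31% of 27025 genes. The letters were chosen because Mitf is known to bind them, and it binds before many pigment genes. The count is therefore no independent comparison. CATGTG, which every TCATGTG contains, occurred in 5 of the 7, Oca2 being the additional one, against 15.9% of genes. CACGTG occurred in 0 of the 7, against 8.09% of genes. No window of Mitf or Kit held any of these letters. The longer run TCATGTGCT, read from Tyr after the sequences were seen, was shared by Tyr, Tyrp1 and Dct and occurred in 0.414% of genes, and AGTCATGTGCT was shared by Tyr and Tyrp1 and occurred in 7 of the 27025 genes. The RefSeq spans of Tyrp1 and Oca2 begin upstream of the start sites used for these windows. A match describes letters, not a binding site.

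**Figure D1:**
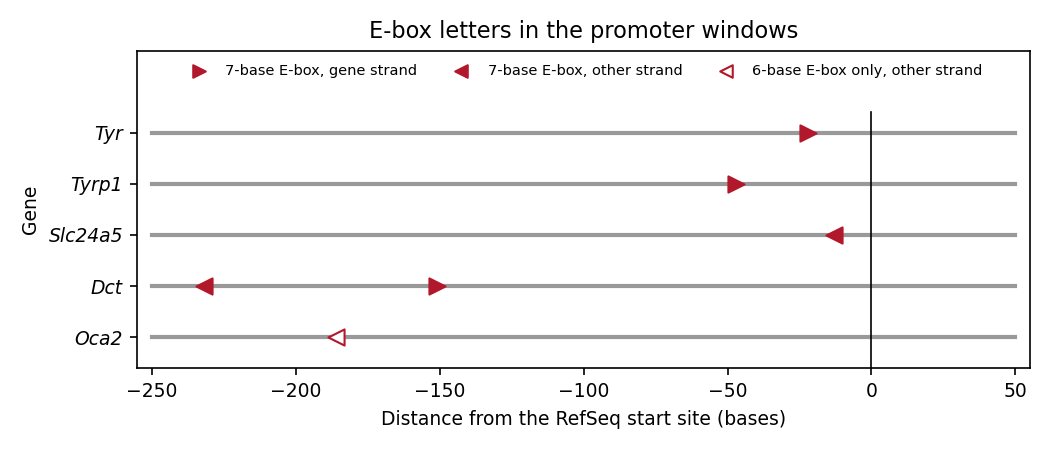
Positions of E-box letters in the promoter windows of 5 pigment genes, as distance in bases from the RefSeq start site (0, vertical line). Filled triangles are TCATGTG and the open one is CATGTG alone, pointing right on the gene's strand and left on the other; Tyr, Tyrp1 and Slc24a5 have theirs within 47 bases of the start, Dct and Oca2 farther away.

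At P1 none of the 9 genes was past 2-fold, where 1.17% of 17233 genes were called lower and 1.72% higher. Their median log2 ratio was −0.18, beside 0.061 over all genes, and 5 of the 9 lay below 0, against 44.1% of all genes. Past 1.5-fold lower were 3 of them, Tyr, Tyrp1 and Slc24a5, where 6.92% of all genes were past that size, and 1 was past it higher, Slc45a2, where 9.08% of all genes were. Each of these pigment genes has 1 probe and so met the sign condition in any case. Of the 17233 genes, 7442 had at least 2 probes, which had to agree in sign. The shares are thus not matched in probe number, here or at P9. The median was the value of Mitf, whose 2 probes differ in sign. With the probe farthest from 0 left out in each gene with at least 2 probes, that is Mitf and Dct in this set, the median was −0.045, the value of Dct.

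At P9 Oca2 was called lower, as 1 of the 9 genes, where 0.465% of 18269 genes were called lower. None was called higher, where 2.24% of all genes were. The median was −0.41, beside 0.023 over all genes, and 8 of the 9 genes lay below 0, against 46.6% of all genes. Past 1.5-fold lower were Tyr, Tyrp1, Slc24a5 and Oca2, that is 4 of the 9, where 3.3% of all genes were past that size, and Slc45a2 was again the 1 gene past it higher, where 6.17% of all genes were. The channels of the P9 array also differed in sex-linked transcripts, with Xist of the inactive X chromosome at 3.67 ± 1.05 (SD, 4 probes) and the Y-linked genes Eif2s3y at −3.98 and Kdm5d at −1.76 (−1.765 before rounding). Of the 4 sex-linked genes with a probe, 1 was called higher and 2 lower at P9. Uty, also Y-linked, was at −1.99 ± 1.46 at P9 (SD, 4 probes). Its probes were at −2.57, −1.97, −3.43 and 0, the last of which kept it from a call. Of the 2 genes with a value at P1, 0 were called. The channels differed at P1 too, however: Xist was at −1.03 ± 0.77 (SD, 4 probes), opposite to P9, with 3 probes from −1.41 to −1.42 and the remaining one at 0.12 (0.115 before rounding), whose sign kept it from a call. Uty, which is Y-linked, was at 0.33 ± 0.57 at P1 (SD, 2 probes). On neither array can genotype be told apart from this difference in sex-linked transcripts. Its part in the pigment gene values was not tested.

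**Figure D2:**
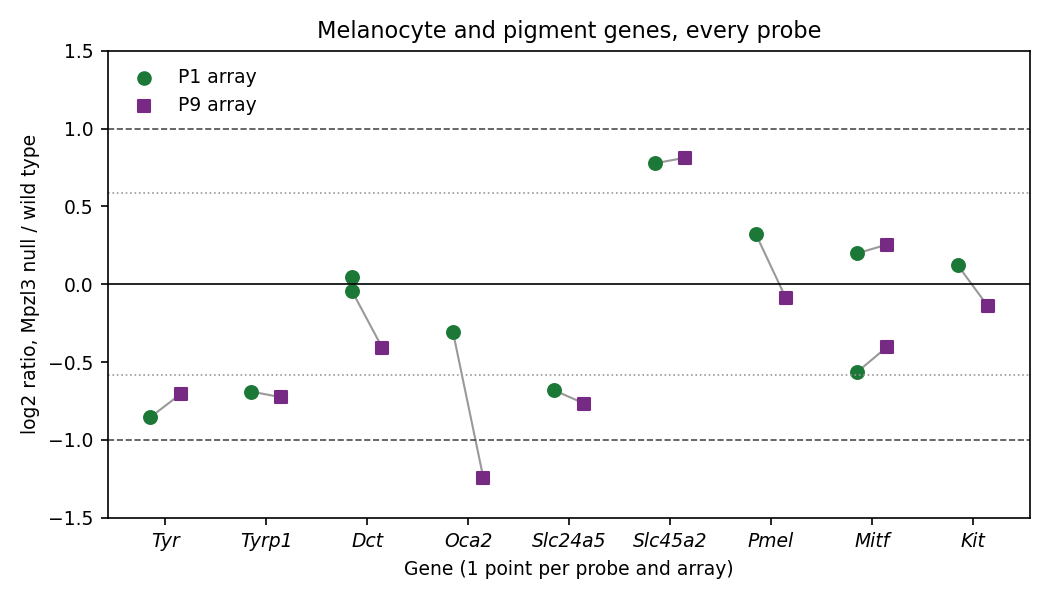
Log2 ratio of Mpzl3 null over wild type (vertical axis) for every probe of the 9 measured pigment genes, circles for the P1 array and squares for the P9 array, with grey lines joining the same probe. Dashed lines mark 2-fold and dotted lines 1.5-fold; Tyr, Tyrp1 and Slc24a5 lie between −0.68 and −0.85 on both arrays, Slc45a2 lies near 0.8 on both, and Oca2 alone passes 2-fold, at P9.

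Among the enzymes, Tyr, which encodes tyrosinase, was at −0.85 at P1 and −0.705 at P9, so the null channel gave 0.553 times the wild-type signal at P1 and 0.613 times at P9. Tyrp1, the tyrosinase-related enzyme needed for black rather than brown pigment in mice, was at −0.69 at P1 and −0.73 at P9, or 0.620 and 0.605 times the wild-type signal. Each has 1 probe, and each probe gave nearly the same ratio at both ages, with a difference of P9 minus P1 of 0.15 for Tyr and −0.037 for Tyrp1. Of all genes, 2.20% lay as low as Tyr at P1 and 1.84% at P9. For Tyrp1 the shares were 4.61% and 1.67%. Many of all genes are means over several probes. These shares, and those of Oca2 and Slc45a2 below, are thus not matched in probe number.

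Dct, the dopachrome tautomerase that acts between tyrosinase and Tyrp1, had a different pattern from these enzymes at P1. Its 2 probes were at 0.05 and −0.045 at P1, a mean of 0.0025. At P9 the first probe was blank and the other was at −0.41, or 0.753 times the wild-type signal. The 3 enzymes were therefore below 0 together at P9, whereas at P1 the ratio of Dct was near 1. Whether Dct and its relatives truly differ at P1 was not tested.

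Among the transporters of the melanosome membrane the values went both ways. Oca2, which encodes the pink-eyed dilution protein that regulates melanosome pH, was at −0.31 at P1 and −1.24 at P9. The null channel thus gave 0.808 times the wild-type signal at P1 and 0.423 times at P9, and 0.186% of genes were as low as Oca2 at P9. Its difference of P9 minus P1, −0.93, was the largest of the set in size and rests on 1 probe and 1 array per age.

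Slc24a5, a potassium-dependent sodium and calcium exchanger of pigment cells, was at −0.68 at P1 and −0.77 at P9, or 0.624 and 0.588 times the wild-type signal. It thus lay beside Tyr and Tyrp1 on both arrays. Slc45a2, the gene of the mouse underwhite mutants, was at 0.78 at P1 and 0.81 at P9. Its signal in the null channel was 1.71 times that of the wild-type channel at P1 and 1.76 times at P9, opposite to Tyr, Tyrp1 and Slc24a5. At least as high as Slc45a2 were 3.86% of genes at P1 and 3.49% at P9.

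Pmel, which forms the fibrils on which melanin is laid down, was at 0.32 at P1 and −0.091 at P9, 1.25 and 0.939 times the wild-type signal. Both are smaller than the SD between probes. Pmel and Tyr are both taken as markers of differentiated melanocytes, and at P1 they lay on opposite sides of 0.

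The lineage regulators showed no shift shared by their probes. Mitf had 1 probe at 0.20 at P1 and 0.26 at P9 (0.255 before rounding) and another at −0.57 and −0.40. The annotation gives both probes the same transcript accession, yet they lay 0.76 log2 apart at P1 and 0.66 apart at P9. Of 4643 genes with exactly 2 probes valued on both arrays, 6.0% (5.99% before rounding) had gaps at least as wide as those of Mitf at both ages. The means, −0.18 ± 0.54 at P1 and −0.074 ± 0.47 at P9 (SD, 2 probes), therefore describe neither probe. Mitf has several promoters and isoforms, and which of them each probe detects is not stated in these sources.

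Kit, the receptor tyrosine kinase of melanoblasts, was at 0.12 at P1 and −0.14 at P9, within the spread between probes. Kit is also made by mast cells, whose other markers had medians of −0.067 over 9 genes at P1 and 0.043 over 10 genes at P9. Mrgprb2 of mast cells was called lower at P1, at −1.18, as 1 of 9 genes, where 1.17% of all genes were called lower. Ms4a2, a chain of the mast cell IgE receptor, was called higher at P9, at 1.00 (1.005 before rounding). It was 1 of 10 genes, where 2.24% of all genes were called higher. The part of mast cells in the Kit value was not tested.

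Between the ages, 6 of the 9 genes had the same sign on both arrays, against 74.3% of the 16647 genes measured on both. Past 1.5-fold lower at both ages were 3 of the 9, where 2.25% of all genes were, and past it higher at both was 1, where 3.23% of all genes were. The median difference of P9 minus P1 was −0.086, beside −0.014 over all genes. The difference lay below 0 for 6 of the 9 genes, against 51.9% of all genes. Xist lay below 0 at P1 and above 0 at P9. Age thus cannot be told apart from that change in sex-linked transcripts between the channels. Once the arrays were centred and brought to equal spread, the median difference of the pigment genes was −0.29. That scaling shrank ratios at P1 and enlarged them at P9, which lowers the difference of genes below 0 on both arrays. The difference over all genes was not computed under it. The arrays used different pups, but ratios also repeated in spots with no gene: over 79 control spots the P1 and P9 values correlated with r = 0.560. The deviation of single probes from their gene's mean at P1 also correlated with that at P9, with r = 0.673 over 17527 probes, which share their dyes and design across the arrays. Since 7 of the 9 genes rest on 1 probe, the part of such probe-bound ratios in the repeated values of Tyr, Tyrp1, Slc24a5 and Slc45a2 was not tested.

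**Figure D3:**
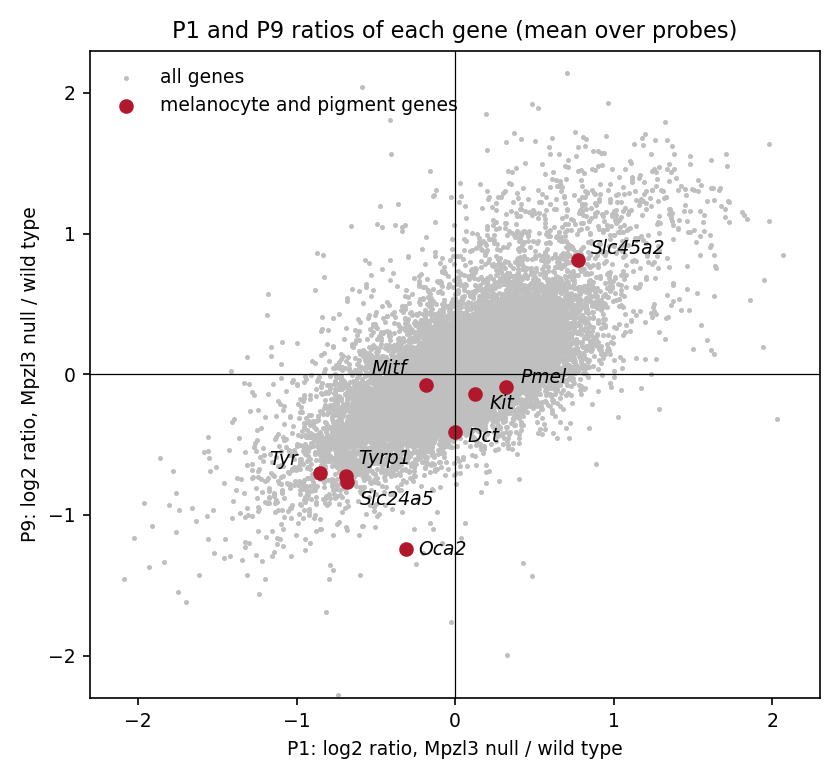
Log2 ratio of null over wild type at P1 (horizontal) and at P9 (vertical) for every gene measured on both arrays (grey) and the 9 pigment genes (red), each as the mean of its probes; 1 gene lies beyond the axes. Tyr, Tyrp1 and Slc24a5 lie together at the lower left, Slc45a2 lies at the upper right, and Oca2 lies below the cloud because of its P9 value.

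The promoter letters were also set against the ratios of all genes. Genes with TCATGTG in a window had a median log2 ratio of 0.070 over 442 genes at P1, beside 0.065 over 13260 genes without it. At P9 the medians were 0.034 over 484 genes with it and 0.023 over 14070 genes without it. These medians are over genes of all cell types in whole skin. They cannot show the part of the letters in melanocytes, which was not tested.

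Signals that act on melanocytes were examined through a list of 14 ligands, receptors and modifiers, all of which had a value. Of these, 1 was called lower at P1, where 1.17% of all genes were, and 0 higher, where 1.72% were. At P9, 0 were called lower, where 0.465% of all genes were, and 0 higher, where 2.24% were. The list had medians of 0.054 at P1 and −0.057 at P9 (−0.0575 before rounding). The gene called was Kitl, the ligand of Kit, at −1.01 ± 0.45 at P1 (SD, 2 probes), where the null channel gave 0.497 times the wild-type signal. Its probes were at −1.33 and −0.69 at P1 and at −1.54 and 0.022 at P9, so that at P9 they no longer had the same sign and the mean, −0.76 ± 1.10, was not called. Kitl is made by keratinocytes and dermal cells and was lower at P1 while its receptor Kit was at 0.12.

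The endothelin pathway, which melanoblasts need to colonise the skin, had values below 0 at P1 in its receptor. Ednrb was at −0.74 ± 0.031 at P1 (SD, 2 probes), 0.598 times the wild-type signal, with probes at −0.76 and −0.72. At P9 these probes were at 0.31 and −0.79 and gave a mean of −0.24 ± 0.78. Its ligand gene Edn3 was at −0.46 ± 0.69 at P1 and −0.30 ± 0.32 at P9 (SD, 2 probes each), with 1 probe near 0 at both ages. Neither Ednrb nor Edn3 was past 2-fold.

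Genes of the switch between black and yellow pigment were all within 2-fold as means over their probes. Mc1r, the melanocortin receptor, was at 0.54 at P1 and 0.28 at P9, and Asip, the agouti antagonist that the annotation names a, was at 0.14 at P1 and 0.042 at P9. Atrn, which encodes the attractin receptor needed for agouti signalling, was at 0.25 ± 0.62 at P1 and 0.31 ± 0.49 at P9 (SD, 4 probes). Its first probe was past 2-fold, at 1.13 at P1 and 1.01 at P9, while the others lay between −0.19 and 0.24 on both arrays. Corin, a protease of the dermal papilla that limits agouti signalling, was at −0.49 at P1 and −0.35 at P9. Apart from this switch, the growth factor gene Fgf2 of the same list was at −0.028 (−0.0285 before rounding) at P1 and −0.33 at P9.

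Transcription factors of the lineage were listed as 12 genes, of which 0 were past 2-fold at either age, with medians of 0.14 at P1 and 0.012 at P9 (0.0115 before rounding). Over all genes, 1.17% were called lower and 1.72% higher at P1, and 0.465% and 2.24% at P9. With such shares, 0 calls in a list this short say little of its genes. Sox10, which activates Mitf, was at 0.59 at P1 by 1 probe and at 0.052 ± 0.36 at P9 by 2 probes, of which the first repeated at 0.31. Pax3, another activator of Mitf, was at 0.24 ± 0.32 at P1 and 0.084 ± 0.24 at P9 (SD, 2 probes each). The pair of AP-2 factors of pigment cells lay on opposite sides, Tfap2a at 0.28 at P1 and 0.34 at P9 and Tfap2b at −0.39 at P1 and −0.36 at P9. Irf4, which acts with Mitf at the Tyr gene in human melanocytes, was at 0.81 at P1 and 0.0070 at P9.

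Many genes that build and move melanosomes also serve lysosomes of other cells. Of 25 genes of melanosome biogenesis 0 were past 2-fold. Among all genes, 1.17% were called lower and 1.72% higher at P1, and 0.465% and 2.24% at P9. The biogenesis list had medians of −0.051 at P1 and −0.012 at P9 (−0.0115 before rounding). The highest was Tpcn2, a two-pore channel of endosomes and melanosomes, at 0.68 ± 0.22 at P1 and 0.83 ± 0.072 at P9 (SD, 2 probes each). Gpr143, the receptor of the melanosome that is mutated in human ocular albinism, was at 0.076 at P1 and 0.27 at P9, and Rab38, the chocolate gene of mice that carries Tyrp1 to melanosomes, was at −0.12 at P1 and −0.058 at P9. Slc7a11, the cystine transporter behind the subtle gray coat, was at −0.41 ± 0.31 at P1 and −0.38 ± 0.44 at P9 (SD, 4 probes).

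Of the 8 melanosome transport genes, 7 had a value at P1 and 8 at P9, and 0 were past 2-fold. Their medians were −0.25 at P1 and 0.15 at P9. The shares of all genes called were 1.17% lower and 1.72% higher at P1, and 0.465% and 2.24% at P9. Of the Rab27a, Mlph and Myo5a complex that ties melanosomes to actin, the motor gene Myo5a was at −0.60 ± 0.25 at P1 (SD, 2 probes) and −0.33 ± 0.26 at P9 (SD, 3 probes). Its partner Mlph was at 0.69 at P1 and 0.037 at P9, and Rab27a at −0.28 at P1 and −0.070 (−0.0695 before rounding) at P9. At P1 the complex thus had members on both sides of 0.

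**Figure D4:**
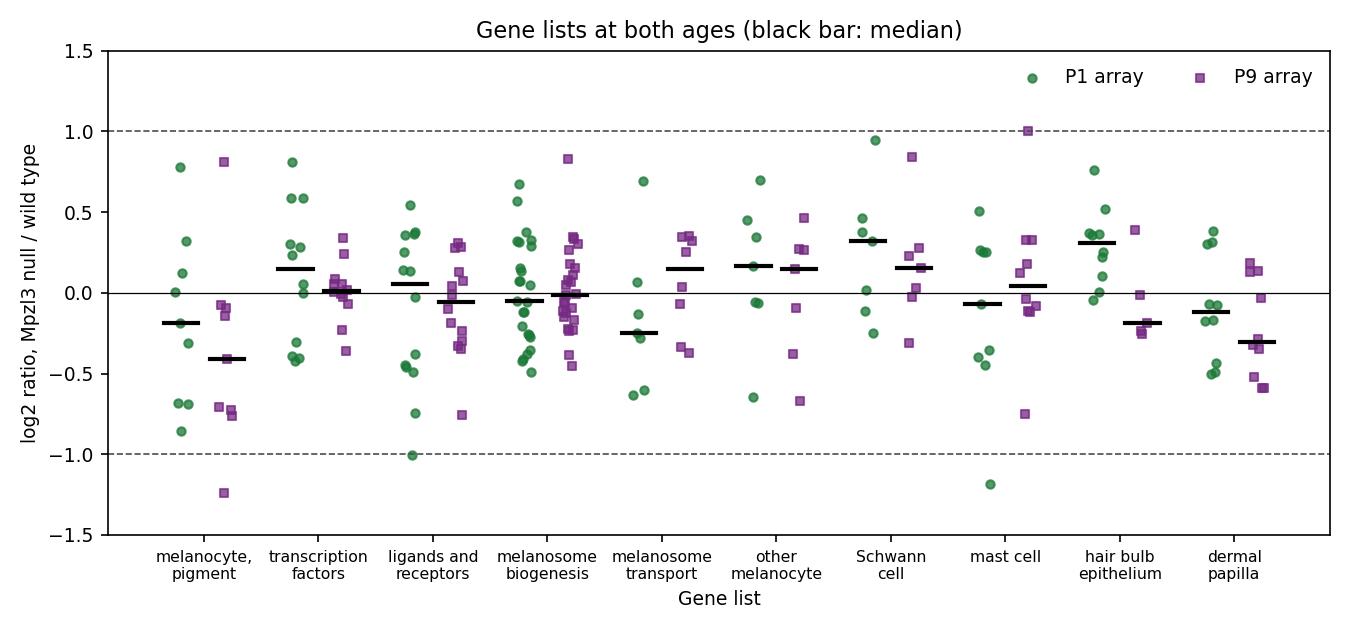
Log2 ratio of null over wild type (vertical axis) for each gene of the pigment set and of 9 other lists, circles for the P1 array and squares for the P9 array, with black bars at the medians and dashed lines at 2-fold. The pigment set has a median of −0.18 at P1, where melanosome transport lies lower at −0.25, and of −0.41 at P9, with P9 values from −1.24 to 0.81.

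Other melanocyte-enriched genes went with neither the low nor the high pigment genes as a set. Of 8 listed, 7 had a value, 0 were past 2-fold, and the medians were 0.17 at P1 and 0.15 at P9. Over all genes, 1.17% were called lower and 1.72% higher at P1, and 0.465% and 2.24% at P9. Trpm1, a channel gene whose RNA is abundant in melanocytes, had probes at −0.025, −0.52 and 0.38 at P1 and at −0.98 and 0.23 at P9, with the remaining probe blank. Syt4 was at −0.64 ± 0.34 at P1 and −0.67 ± 0.50 at P9 (SD, 2 probes each), and Cited1 was at 0.70 at P1 and 0.27 at P9.

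Markers of the cells around and related to melanocytes were measured beside the set. Schwann cells, which share the neural crest origin and Sox10, had medians of 0.32 at P1 and 0.16 at P9 over 7 genes, led by Mag at 0.95 and 0.84 (0.8445 before rounding), and 5 of the 7 were above 0 at each age. Hair bulb epithelium, part of which takes up the pigment, had a median of 0.31 over 10 genes at P1. Krt31 was at 0.76 and Krt35 at 0.52. At P9 only 5 of the 10 genes had a value, with a median of −0.18 (−0.185 before rounding), and Krt25, Krt31 and Krt35 were blank. Over the probes valued on both arrays, which covered 5 genes, the P1 median was 0.10 (0.104 before rounding). Dermal papilla genes had medians of −0.12 at P1 and −0.31 at P9 over 10 genes, and 7 of the 10 were below 0 at each age. Sox2 was at −0.50 at P1 and −0.52 at P9, Alpl at −0.17 and −0.59, and Bmp4 at 0.38 (0.385 before rounding) and 0.19. Among all genes, 1.17% were called lower and 1.72% higher at P1, and 0.465% and 2.24% at P9. None of the Schwann cell, hair bulb or dermal papilla genes was past 2-fold at either age. The part of these cells in the pigment gene values was not tested.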

How the data were processed

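Per the labels' protocols, TRIzol and RNeasy were used to extract RNA of dorsal skin, and amplified amino allyl RNA was dyed with Cy3 or Cy5. The authors deposited log2 ratios for 39212 spots, a column for each array. How background and dyes were treated, and why cells are blank, is not stated in these sources. Base 2 was inferred from the range of values, so fold values rest on it. Medians of −0.007 at P1 and 0.005 at P9 show centred columns. Blank cells made up 11.3% at P1 and 4.71% at P9. The labels' dyes gave the direction of the ratio. Columns of unmapped samples numbered 0.

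Probes were named from the platform annotation and 31210 of 31337 with 1 gene were matched to RefSeq (GRCm38.p6) by Entrez identifier; 40 naming several genes, 7744 without a name here and 91 control spots were left out. Probes of 1 gene were averaged. No test was run. The genes, the 10 other lists and the rule for named genes (all pigment genes, and from each list those past 2-fold and the 4 largest in size at each age, always with Sox10, Pax3, Ednrb, Edn3, Kitl, Mc1r, Asip, Gpr143, Rab38, Mpzl3 and the sex-linked genes) were chosen with earlier results of these data known; the text gives a selection of the names. No protein sequences were compared. Alternatives changed the threshold, the sign condition, the probe summary, the probes used, the centring and scale, and the symbols. Python 3.11.15, numpy 2.4.6 and pandas 2.3.3 were used, and the calls were tested on simulated data.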

Additional observations from a re-analysis of the deposited data

Results flagged for a closer look

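Pigment genes with opposite signs on the P1 and P9 arrays were Dct, Pmel and Kit. The difference of P9 minus P1 was −0.41 for Dct (0.0025 at P1 and −0.41 at P9), −0.41 for Pmel (0.32 and −0.091) and −0.26 (−0.265 before rounding) for Kit (0.12 and −0.14). With 1 array per age these differences were not tested, and for Dct the probe measured on both arrays was below 0 at both, at −0.045 and −0.41.

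Opposite signs were also found among genes of the other lists. The difference of P9 minus P1 was 0.60 for Exph5 of melanosome transport, −0.33 for Pmp22 and 0.39 for Egr2 of Schwann cells, −0.55 for Tpsb2 of mast cells, and −0.41 for Msx2, −0.36 for Hoxc13 and −0.24 for Gata3 of the hair bulb. For the sex-linked genes it was 4.70 for Xist and −2.32 for Uty. None of these differences was tested.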

How the results depend on the processing

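At a threshold of 1.5-fold, 4 pigment genes passed at P1 and 5 at P9, in place of 0 and 1 at 2-fold. Over all genes, 6.92% were past 1.5-fold lower and 9.08% higher at P1, and 3.3% and 6.17% at P9. At 3-fold, 0 passed at P9, and with genes of at least 2 probes 0 passed at P9, since only Mitf was left. The P1 median of −0.18 became −0.045 without the probe farthest from 0 in each gene with at least 2 probes, and the P9 median of −0.41 became −0.074 over genes with at least 2 probes. The median difference of P9 minus P1, −0.086, became −0.29 with the arrays centred and scaled to 1 spread and 0.11 over genes with at least 2 probes, again Mitf alone. Of 166 values of single pigment genes under an alternative, 161 kept their sign; the others, 5 in number, were Mitf and Dct with other probes and the P9 minus P1 difference of Tyr, −0.13 with the arrays centred and scaled. Beyond the SD between probes only 1 value moved, that of Mitf at P1, to 0.20. These counts are no measure of robustness. With 1 probe each, 7 of the 9 genes could not change when the probe summary, the probes used or the symbols were changed. No paired analysis was possible because each age has 1 array. No spot intensities were used, so dim spots could not be told from bright ones.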
